A study of Homo sapiens with 18 samples.

Results

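The regions described here are those of the collagen genes, the 323 regions of 115087 in the deposited table that overlapped the body of a collagen chain gene on chromosomes 1 to 22 or lay within 10 kb of it. A collagen gene was any protein-coding gene with a symbol of the form COL, number, A, number in the GENCODE annotation of GRCh37. There were 42 such genes and 38 of them held at least 1 region. COL5A3, COL6A3, COL11A2 and COL20A1 held none. The rule used position alone and no measured value, though the gene family was picked for description with earlier results of these data known.

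Collagens are secreted proteins in which 3 chains wind into a triple helix, and each COL gene codes for 1 chain. Fibrillar collagens build the tensile fibres of the stroma, network-forming collagens build the sheet of the basement membrane, and FACIT collagens (fibril-associated collagens with interrupted triple helices) sit on the surface of fibrils. Squamous epithelia are known for COL7A1, which forms the anchoring fibrils under the basement membrane, and for COL17A1, a transmembrane collagen of the hemidesmosome. Carcinoma cells also make collagens that are otherwise products of fibroblasts. Open chromatin at a gene is a state of its DNA and not a measure of its transcript.

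Open chromatin was profiled with ATAC-seq, a method that uses Tn5 transposase to insert sequencing adapters into exposed DNA, in SCC1, SCC6 and SCC25, which are human head and neck squamous cell carcinoma (HNSCC) cell lines. Each line received daily doses of cetuximab, an antibody that blocks the epidermal growth factor receptor, at 100 nM or of PBS as the untreated control for 5 days. The 6 groups held 3 libraries each, apart from SCC1 PBS with 2, because SCC1 PBS replicate 2 was not analysed here. The labels do not say whether replicates came from separate cultures, so p-values measure the spread between these libraries, which may be technical.

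The libraries held 2194851 to 4171650 reads in regions in SCC1, 4098164 to 15017130 in SCC6 and 2513828 to 13408698 in SCC25. In each library 7.14% to 28.8% of all regions stood at the minimum value, worth 1 read. The start-site regions of all 6 squamous markers examined were in the table, whereas those of the 3 leukocyte and 3 endothelial markers had no region. KRT14 and DSG3, a keratin and a desmosomal cadherin of squamous cells, had mean signals of 38.8 and 42.8 in SCC1 PBS and 35.8 and 51.3 in SCC25 PBS but only 1.66 and 0.988 in SCC6 PBS, so SCC6 was near the minimum at both. CDH1 and ITGB4, an epithelial cadherin and an integrin of the hemidesmosome, had 79.8 and 88.1 in SCC6 PBS, 77.7 and 110.3 in SCC1 PBS and 58.8 and 70.2 in SCC25 PBS, and so were open in every line. Among 5 fibroblast markers FAP was accessible in every line and DCN stood close to the minimum. In bulk libraries a smaller share of cells with an open region and less opening per cell cannot be told apart.

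The sequences below are from the regions whose changes after cetuximab are described further on. They are the central 300 bases of each region, or the whole region where it is shorter, on the plus strand of GRCh37, written 5′ to 3′. Capitals mark matches on either strand to TGACTCA or TGAGTCA (AP-1), GCCNNNGGC (TFAP2), GGAATG or its reverse CATTCC (TEAD), and GGGCGG or its reverse CCGCCC (SP/KLF). The first 3 became more accessible after cetuximab in SCC6, SCC1 or both, and the last 3 became less accessible in SCC1 (COL6A5 and COL19A1 also in SCC6).
COL4A3 intron 1, chr2:228079357-228079656: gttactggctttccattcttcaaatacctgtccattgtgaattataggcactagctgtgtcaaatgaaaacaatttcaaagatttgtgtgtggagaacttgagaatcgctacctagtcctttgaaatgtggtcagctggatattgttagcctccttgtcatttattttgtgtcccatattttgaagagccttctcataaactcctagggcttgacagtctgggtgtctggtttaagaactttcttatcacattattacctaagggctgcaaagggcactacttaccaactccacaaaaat
COL11A1 intron 42, chr1:103406982-103407281: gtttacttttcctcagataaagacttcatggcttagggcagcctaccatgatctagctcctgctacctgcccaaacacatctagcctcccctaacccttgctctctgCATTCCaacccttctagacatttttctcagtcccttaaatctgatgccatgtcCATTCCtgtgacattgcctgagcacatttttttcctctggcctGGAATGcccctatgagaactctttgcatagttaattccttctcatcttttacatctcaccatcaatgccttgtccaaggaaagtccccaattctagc
COL5A1 intron 1, chr9:137536779-137537078: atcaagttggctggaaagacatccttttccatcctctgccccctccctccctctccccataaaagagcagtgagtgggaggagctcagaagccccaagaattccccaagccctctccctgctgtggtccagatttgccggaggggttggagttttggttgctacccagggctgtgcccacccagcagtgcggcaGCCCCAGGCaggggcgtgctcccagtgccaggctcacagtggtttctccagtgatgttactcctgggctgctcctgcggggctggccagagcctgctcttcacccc
COL17A1 intron 20, chr10:105814371-105814555: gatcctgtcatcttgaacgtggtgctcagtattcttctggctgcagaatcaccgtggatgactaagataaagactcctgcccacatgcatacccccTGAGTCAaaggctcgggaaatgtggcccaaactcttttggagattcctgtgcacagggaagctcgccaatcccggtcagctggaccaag
COL6A5 intron 5, chr3:130105532-130105761: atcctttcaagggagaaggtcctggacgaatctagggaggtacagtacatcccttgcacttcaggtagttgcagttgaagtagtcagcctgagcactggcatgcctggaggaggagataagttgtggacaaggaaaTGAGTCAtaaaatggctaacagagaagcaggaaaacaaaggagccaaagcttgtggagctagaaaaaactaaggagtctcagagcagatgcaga
COL19A1 intron 4, chr6:70627836-70628135: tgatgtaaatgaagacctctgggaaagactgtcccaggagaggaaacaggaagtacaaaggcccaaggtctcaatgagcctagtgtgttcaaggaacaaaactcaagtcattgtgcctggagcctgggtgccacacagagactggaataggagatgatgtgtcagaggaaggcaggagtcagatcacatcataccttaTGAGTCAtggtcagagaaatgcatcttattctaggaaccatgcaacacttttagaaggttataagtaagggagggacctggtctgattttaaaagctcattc

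None of the 4 motifs was found in the COL4A3 window. The COL11A1 window held 3 TEAD matches and the COL5A1 window 1 TFAP2 match, and the windows of COL17A1, COL6A5 and COL19A1 each held 1 AP-1 match. For the shares over all regions, matches were counted in 300 bases around the centre, also where the region was shorter than that. Counted so, AP-1 matches occurred in 26.6% of the collagen regions and in 24.4% of all regions in the table. The shares were 26.3% and 21.9% for TEAD, 12.1% and 11.8% for TFAP2, and 12.7% and 15.3% for SP/KLF. A match is a description of the letters and not of a bound factor.

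Most collagen regions lay inside genes. Of the 323 regions, 287 overlapped a gene body and 36 lay in a flank only. Introns of the canonical transcript held 232 (71.8%), whereas 19 overlapped a coding exon and 16 an exon of an untranslated region. The median width was 262 bases against 258 for all regions, and the median GC content was 46.6% against 45.9%. COL4A2, a chain of the most common basement membrane network, had the most regions (22), followed by COL14A1, COL21A1 and COL25A1 with 20 each. COL3A1 and COL6A2 had 1 each. Per length, COL15A1, a collagen of the basement membrane zone, had the highest density at 10.8 regions per 100 kb of the gene with its flanks. Only 8 collagen regions (2.48%) had a peak in all 17 libraries, against 4.72% of all regions. A peak in at least 1 library of the line was found for 125 collagen regions in SCC1, 233 in SCC6 and 215 in SCC25, and 86 had a peak in SCC6 alone.

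Start sites were compared between genes on a per-length scale, the deposited signal divided by the width of the region and multiplied by 100. A start-site region lay within 1 kb of an annotated start of its own gene, and where there were several the region with the highest mean over all libraries was taken. There were 25 such regions for 27 genes, since COL4A1 and COL4A2, and COL4A3 and COL4A4, are transcribed in opposite directions from a shared promoter. For 19 genes the region lay at the 5′ end of the gene itself. The others, such as the COL14A1 and COL21A1 regions, lay at starts of shorter transcripts inside the gene.

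In PBS the highest level at a 5′ end was that of COL12A1, a FACIT collagen of type I fibrils, in SCC1 (40.2 ± 5.39 per 100 bases, SD, n = 2) and SCC25 (32.5 ± 2.70, n = 3). In SCC6 the highest was that of COL5A1, a type V chain that limits the diameter of fibrils (20.7 ± 0.364, n = 3), though the spread of COL27A1 (18.5 ± 4.29) reached past it and past COL12A1 (16.0 ± 0.665). In SCC25 COL22A1 (30.2 ± 1.70) and COL5A1 (28.4 ± 0.0933) stood next to COL12A1, and in SCC1 COL7A1 (23.5 ± 5.33) and COL19A1 (18.4 ± 1.39) did. COL1A1, the main chain of type I collagen, had 8.10 ± 1.44, 8.56 ± 0.593 and 10.4 ± 0.866 in SCC1, SCC6 and SCC25. COL1A2, its partner chain, had 16.9 ± 3.30 in SCC1 and 12.4 ± 1.09 in SCC25 but 4.46 ± 2.97 in SCC6. COL25A1, a transmembrane collagen of neurons, was the lowest of the 5′ ends in SCC1 and SCC6 (2.25 ± 0.243 and 0.519 ± 0.340), and COL6A1, a chain of beaded filaments, was the lowest in SCC25 (4.42 ± 0.843). None of these ranks held beyond the spread, since COL6A1 had 2.37 ± 0.837 in SCC1, COL16A1 had 0.675 ± 0.324 in SCC6 and the shared COL4A3 and COL4A4 promoter had 5.08 ± 0.703 in SCC25.

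**Figure D1:**
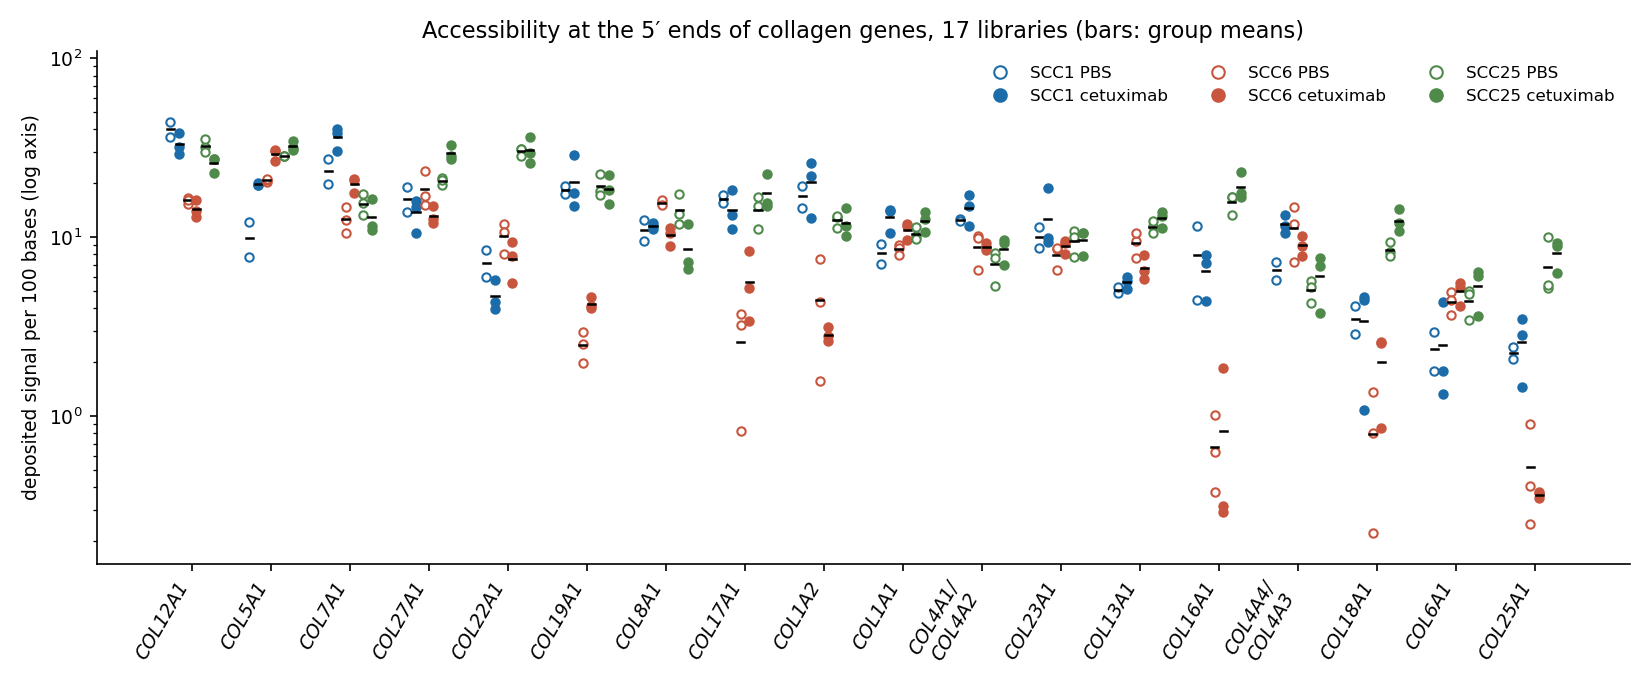
Deposited signal per 100 bases (log axis) at the 5′ ends of collagen genes in each of the 17 libraries, with open circles for PBS, filled circles for cetuximab, colours for the lines and short bars for group means; shared promoters carry both names. Genes run from left to right by their mean over the 6 group means, with COL12A1 first although COL5A1 lies above it in SCC6 PBS, and the SCC6 points of COL19A1, COL17A1, COL1A2, COL16A1 and COL25A1 sit below those of the other lines.

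The PBS libraries were compared between lines to set the scale of the treatment effects, with limma on the log2 of the signal plus 1 and Benjamini-Hochberg adjustment over all tested regions at 0.05. Of 258 collagen regions tested, 165 differed between SCC6 and SCC1 (69 higher and 96 lower in SCC6), where 61.2% of all regions were called (30.7% higher and 30.5% lower). Between SCC25 and SCC1 140 differed (92 higher and 48 lower in SCC25, where 51.3% of all regions were called, 28.2% higher and 23.1% lower), and between SCC25 and SCC6 179 did (128 higher and 51 lower in SCC25, where 68.7% of all regions were called, 36.7% higher and 32.1% lower). The shares called were thus near those of all regions. The median log2 difference of the collagen regions was -0.35 for SCC6 against SCC1, 0.25 for SCC25 against SCC1 and 0.58 for SCC25 against SCC6, beside -0.06, -0.04 and 0.06 over all regions. At least 1 of the 3 comparisons was called for 230 of the 258 regions (89.1%) and for 86.2% of all regions. When libraries were scaled to equal medians instead, the SCC25 against SCC1 median over all regions went from -0.04 to -0.27. The collagen split became 84 higher and 68 lower, so 55.3% of the collagen calls were higher, beside 43.1% of all calls.

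At the start sites COL17A1 was lower in SCC6 than in both other lines, and COL7A1 was higher in SCC1 than in both. The COL17A1 start-site region (chr10:105845640-105846076, just upstream of the gene) had signals of 67.7 and 74.8 in SCC1 PBS, 3.62, 14.1 and 16.3 in SCC6 PBS, and 73.1, 48.3 and 65.3 in SCC25 PBS. The SCC6 libraries lay below all others (SCC6 against SCC1 log2 difference -2.76 ± 0.45 (SE), limma adjusted p = 6.5e-05). The COL7A1 start-site region (chr3:48632940-48633479) had 107 and 147 in SCC1, 56.8, 79.6 and 67.4 in SCC6, and 83.3, 72.1 and 94.2 in SCC25, with SCC1 above both other lines (SCC6 against SCC1 -0.89 ± 0.20, limma adjusted p = 0.0015).

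COL5A1, COL19A1 and COL5A2 also differed between lines at their starts, whereas the fibrillar genes COL1A1 and COL27A1 did not pass the threshold in any of the 3 comparisons. COL5A1 (chr9:137533169-137533685, with the first exon) had 62.5 and 40.2 in SCC1 PBS, 105, 108 and 109 in SCC6 and 147, 146 and 147 in SCC25, with no overlap between lines. COL19A1 (chr6:70577163-70577591), a FACIT collagen whose start region also lies at a start of LMBRD1, had 83.3 and 74.8 in SCC1, 8.46, 12.7 and 10.9 in SCC6 and 77.6, 96.6 and 73.8 in SCC25. Its SCC6 libraries were low while the SCC1 and SCC25 libraries overlapped. COL5A2 (chr2:190044331-190044646, at an internal start), the partner of COL5A1, had 2.602 and 11.2 in SCC1, 3.62, 2.01 and 1.09 in SCC6, and 38.4, 32.5 and 54.3 in SCC25, with every SCC25 library above those of the other lines. Of the 24 start-site regions tested, 6 were higher and 9 lower in SCC6 than in SCC1, where 28.5% of all promoter regions were higher and 22.6% lower. In SCC25 6 were higher and 3 lower than in SCC1 (20.1% and 30.3% of all promoter regions), and 13 were higher and 2 lower than in SCC6 (21.2% and 40.8%).

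For some genes the regions in the body and flanks differed between lines by more than the surrounding regions did. The 4 tested COL7A1 regions all lay in the flanks of the gene, 1 of them at a start of PFKFB4. Their median log2 difference was -2.31 in SCC6 against SCC1, while the other regions within 1 Mb of the gene had a median of -0.30. For COL17A1 the values were -2.14 and -0.25. Other genes were higher in SCC6 than in SCC1. COL25A1 (12 regions tested) had 3.15 beside -0.07 in its neighbourhood, and the FACIT gene COL9A1 (3 tested) had 3.75 beside -0.92. Of all their regions, 9 of 20 and 2 of 3 were 190 to 205 bases wide, a width described below. COL15A1 regions had a median of 3.23 in SCC25 against SCC1 beside 1.79 in the neighbourhood, and COL27A1, a fibrillar collagen of cartilage, had 2.179 in SCC25 against SCC6 beside 0.58. For COL5A1 the SCC25 against SCC1 median of 1.15 was close to the 1.00 of its neighbourhood. Copy number was not measured, and its part in these differences was not tested.

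**Figure D2:**
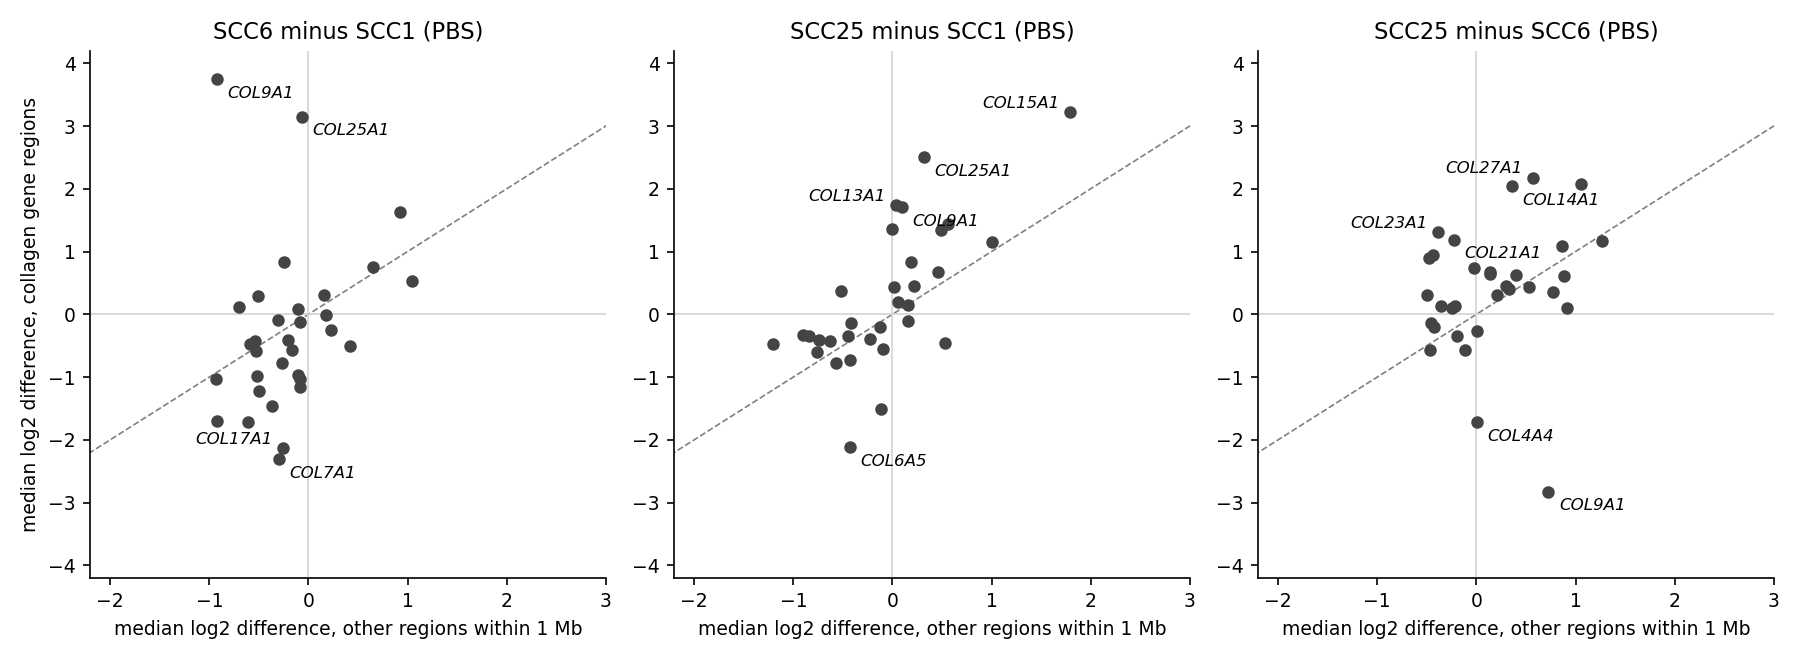
Median log2 difference between lines in PBS over the tested regions of each collagen gene (vertical axis) against that of the other regions within 1 Mb of the gene (horizontal axis), 1 point per gene with at least 3 tested regions; the dashed line marks equal values. Points far from the line carry gene names, among them COL7A1 and COL17A1 at -2.31 and -2.14 in the left panel and COL15A1 at 3.23 in the middle panel. COL25A1 and COL9A1 lie on the other side of the line in the left panel, at 3.15 and 3.75.

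Single regions showed large contrasts, and those named here were chosen by adjusted p and not by size. COL22A1 intron 5 (chr8:139843059-139843801), in a FACIT gene of tissue junctions, had 31.2 and 24.6 in SCC1 PBS, 172, 169 and 188 in SCC6 and 277, 233 and 243 in SCC25 (SCC6 against SCC1 2.63 ± 0.15, limma adjusted p = 3.4e-09). The lines did not overlap, which for SCC1 was a condition for naming the region, and SCC1 was the lowest. COL27A1 intron 37 (chr9:117039269-117040039) had 161 and 179 in SCC1, 25.4, 18.7 and 14.1 in SCC6 and 289, 244 and 284 in SCC25 (SCC25 against SCC6 3.78 ± 0.19, limma adjusted p = 2.4e-10). COL4A4 had its strongest contrast in its downstream flank (chr2:227860313-227860667), with 105 and 100 in SCC1, 1.21, 2.01 and 1.09 in SCC6 and 69.0, 47.6 and 76.3 in SCC25. Both regions were nearly closed or low in SCC6 and open in the other lines. A COL12A1 region over coding exon 10 (chr6:75892823-75893230) was instead closed in SCC25, with 92.4 and 88.2 in SCC1, 38.7, 37.5 and 38.1 in SCC6 and 1.51, 1.44 and 0.848 in SCC25.

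Some of these contrasts fell on regions of nearly equal width. Regions of 190 to 205 bases made up 65 of the 323 collagen regions (20.1%) and 21.7% of all regions. Their median GC content was 35.4%, against 48.7% for collagen regions of other widths, and 53 of the 65 (81.5%) had a peak in SCC6 alone, as did 86.2% of all regions of this width. Examples are COL1A2 intron 29, COL9A1 intron 5 and COL11A1 intron 5, whose SCC1 PBS libraries were all at the minimum of 1 read. Set against a floor of 3 reads per library, the COL1A2 region (chr7:94044211-94044411, 52.0, 45.5 and 45.7 in SCC6 PBS) was at least 13.2-fold higher in SCC6 than in SCC1 and the COL11A1 region (chr1:103492449-103492649) at least 12.7-fold. Of 34 such collagen regions tested between SCC6 and SCC1, 23 were higher and 6 lower, whereas the 224 of other widths held 46 higher and 90 lower with a median of -0.49. The whole table showed the same split, with 74.6% higher and 10.8% lower among all regions of this width and 24.3% and 33.4% among the others. With the GC trend removed the SCC6 against SCC1 calls of COL1A2 and COL11A1 were lost (log2 differences 0.30 and 0.25, limma adjusted p = 0.276 and 0.372), their SCC25 against SCC6 calls were lost too (-0.18 and -0.01), and the COL9A1 difference of SCC25 against SCC6 went from -4.18 to 0.52. The part of width in the line differences was not tested.

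In SCC6 more collagen regions passed the threshold after cetuximab than in the other lines, and more of them were higher than lower. Of 244 tested, 55 were higher and 20 lower after cetuximab (30.7% called, where 27.5% of all regions were called, 16.9% higher and 10.6% lower). The median log2 change was 0.25, beside 0.11 over all regions. Scaling libraries to equal medians put the median over all regions at -0.06, and then 44 collagen regions were higher and 38 lower. Quantile normalization gave 44 and 35, so the excess of opened over closed regions depended on the scaling. Of the collagen calls 73.3% were higher in the main fit, beside 61.5% of all calls. With equal medians the shares were 53.7% and 39.7%, and with quantile normalization 55.7% and 46.7%. The difference from all regions was not tested.

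The opened regions in SCC6 were led by COL4A3 and COL11A1. COL4A3 codes for a chain of the specialised basement membranes of kidney and lung, and its first intron held 3 regions that rose. One of them (chr2:228079274-228079738) had 25.4, 40.1 and 29.4 in SCC6 PBS and 234, 164 and 192 after cetuximab. Every treated library lay above every PBS library, which the rule for naming regions required (log2 change 2.61 ± 0.20, limma adjusted p = 8.8e-15). Another (chr2:228092764-228093318) had 42.3, 32.1 and 45.7 in PBS and 175, 173 and 161 after cetuximab (2.07 ± 0.19, limma adjusted p = 1.9e-12). Between them a region at chr2:228087081-228087409 went from 15.7, 10.7 and 14.1 to 55.6, 41.8 and 59.8. The fourth tested region of intron 1, nearest to the promoter, and the promoter shared with COL4A4 did not pass the threshold in SCC6 (log2 changes -0.05 and -0.27).

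COL11A1, a fibrillar collagen of cartilage that is also made by carcinoma stroma, had a region in intron 42 (chr1:103406842-103407421) with a peak in all 17 libraries. It rose from 82.2, 115 and 114 in SCC6 PBS to 319, 341 and 321 (1.66 ± 0.13, limma adjusted p = 1.6e-14), above the 220, 250 and 178 of SCC25 PBS. A region over coding exon 63 (chr1:103352258-103352527) was nearly closed in SCC6 PBS at 1.21, 2.01 and 4.35 and had 26.3, 26.0 and 20.8 after cetuximab, close to the 24.7 and 30.1 of SCC1 PBS. In COL27A1 intron 7 (chr9:116965736-116966035) all 3 SCC6 PBS libraries were at the minimum of 1 read and the treated libraries had 39.4, 38.1 and 58.5, which is at least 15.3-fold higher than a floor of 3 reads per library. Each of these 3 regions separated treated from PBS libraries without overlap. The rule for naming regions required this of COL11A1 intron 42 and COL27A1 intron 7, but not of COL11A1 exon 63.

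Several genes opened at more than 1 region in SCC6 with none closing. COL15A1 had 5 regions higher of 14 tested, with log2 changes of 0.76 to 2.87. COL26A1 had 4 of 6, COL4A3 4 of 6, COL11A1 4 of 13, COL5A1 3 of 5 and COL7A1 3 of 3. COL4A2 had 5 higher and 1 lower of 15, among them intron 3 regions at chr13:110975554-110975955 (27.8, 21.4 and 15.2 to 79.8, 104 and 76.4) and chr13:110999804-111000592 (277, 261 and 243 to 397, 453 and 403). The latter had a peak in every library and moved by only 0.68 ± 0.09 on the log2 scale, with no overlap of the groups. By class, fibrillar genes had 16 higher and 2 lower of 53, network genes 13 and 4 of 49 and FACIT genes 8 and 8 of 67. With equal medians these were 11 and 4, 11 and 5, and 6 and 17. The balance of directions thus changed for FACIT genes, and over all regions it went from 14622 higher and 9152 lower to 10394 and 15782.

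Among the regions that closed in SCC6, the one with the smallest adjusted p was in COL22A1. COL22A1 intron 5, the region that set SCC1 apart in PBS, fell from 172, 169 and 188 to 61.6, 77.1 and 68.8 (-1.34 ± 0.16, limma adjusted p = 3.1e-09). A region in COL4A2 intron 4 (chr13:111068074-111068242) went from 42.3, 17.4 and 21.8 to 4.04, 2.79 and 4.96, and one in COL27A1 intron 14 (chr9:116986270-116986431) from 29.0, 24.8 and 35.9 to 10.1, 2.79 and 13.2. COL28A1, a collagen of nerve tissue, had 3 regions lower of 9 tested and none higher. Its downstream flank region (chr7:7392612-7392761) went from 16.9, 24.1 and 22.8 to 1.0102, 4.64 and 8.27.

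**Figure D3:**
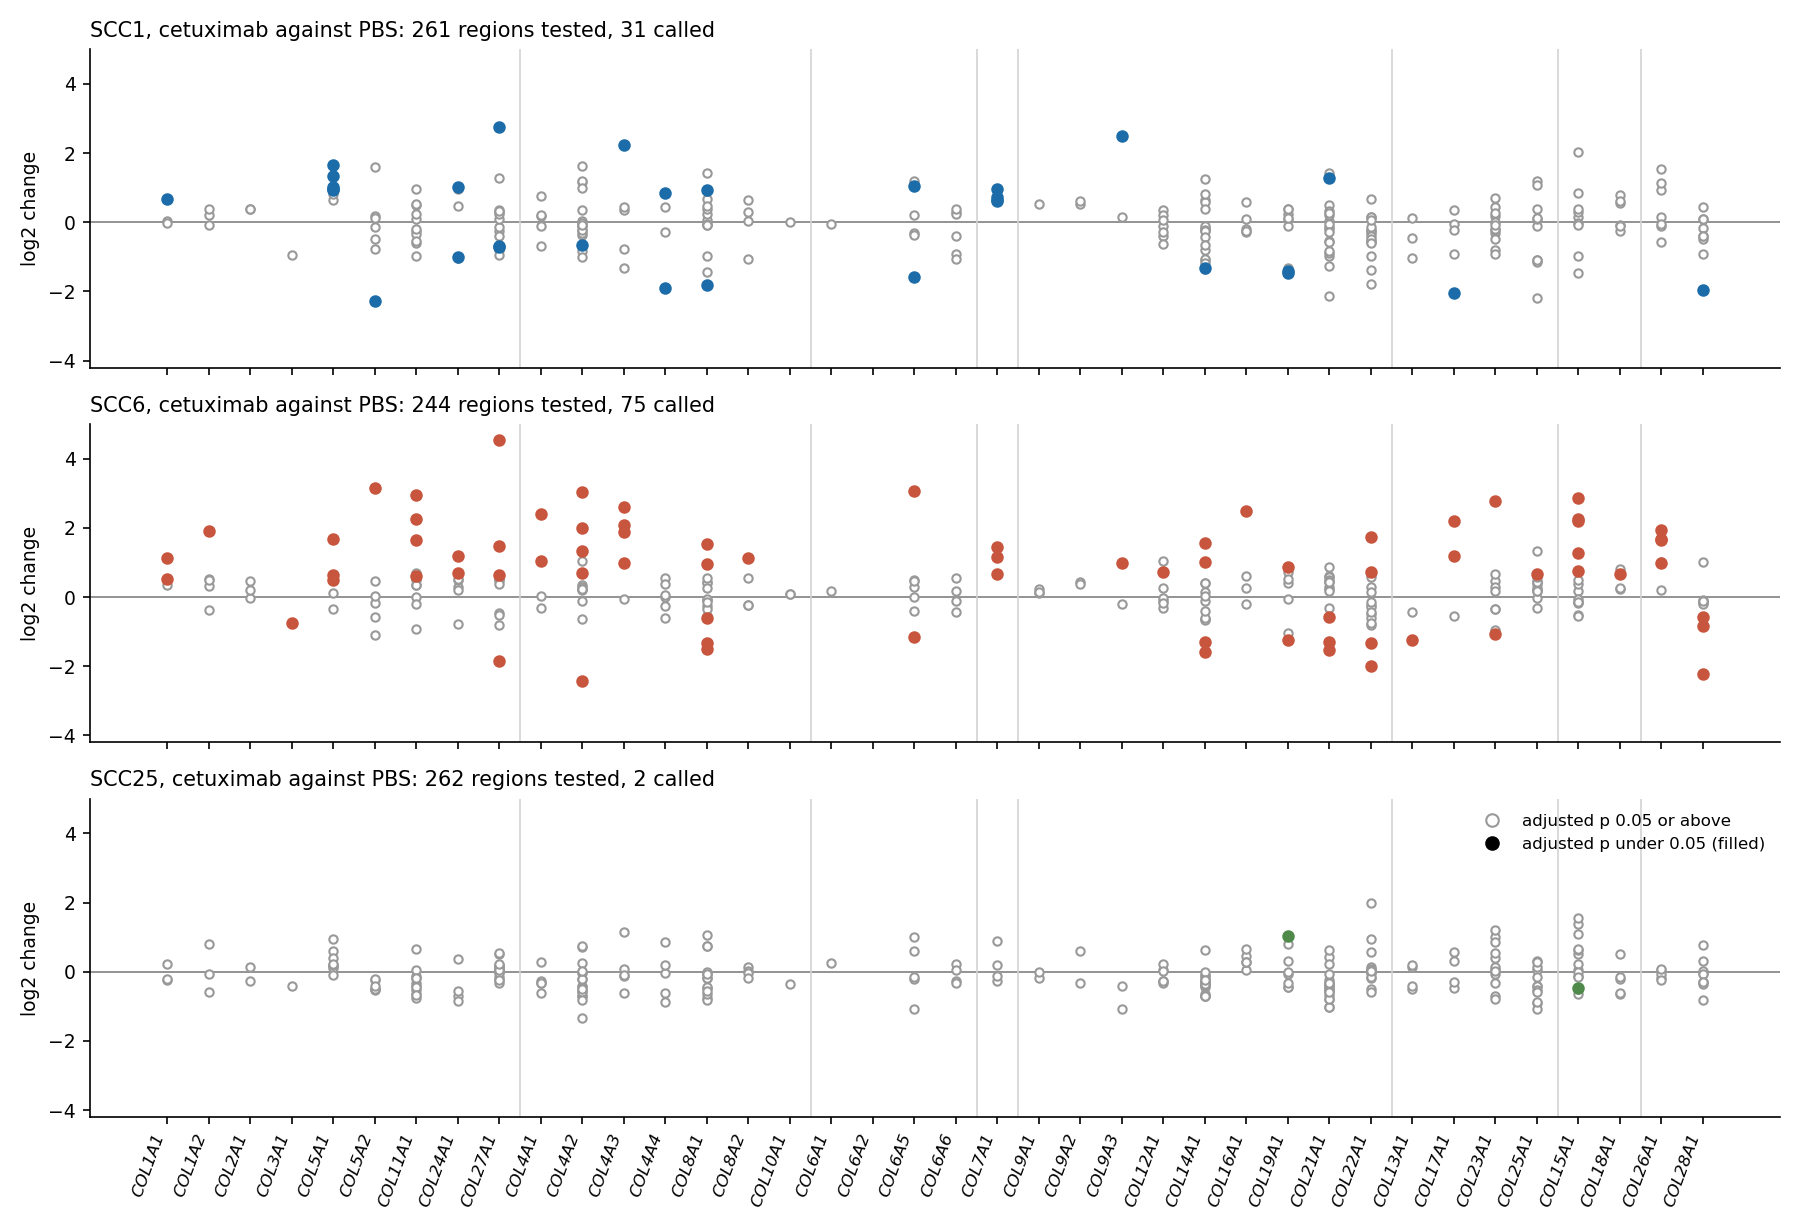
Log2 change (cetuximab against PBS, log2 of signal plus 1) of every tested collagen region, by gene and in 1 panel per line, with genes grouped by class between the grey vertical lines; filled points have a limma adjusted p under 0.05. The panels hold 31 filled points of 261 in SCC1, 75 of 244 in SCC6 and 2 of 262 in SCC25, and the SCC1 points of COL7A1 and COL5A1 are all above 0.

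In SCC1, 18 collagen regions were higher and 13 lower after cetuximab of 261 tested (11.9% called, where 11.1% of all regions were called, 4.57% higher and 6.56% lower). The median log2 change was -0.04, beside -0.09 over all regions. Scaling to equal medians moved the latter to 0.10 and gave 26 higher and 9 lower, and removing a trend with GC content gave 6 and 6. Of the collagen calls 74.3% and 50% were then higher, beside 65.3% and 27.8% of all calls. The count also rested on the PBS libraries. It was 6 in all without SCC1 PBS replicate 1, 12 without SCC1 PBS replicate 3 and 20 to 35 when a treated SCC1 library was left out.

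COL5A1 was the leading gene in SCC1, with 5 of its 8 regions higher and none lower. Its intron 1 region at chr9:137536628-137537228 had 33.8 and 32.4 in SCC1 PBS and 112, 93.4 and 114 after cetuximab (1.65 ± 0.29, limma adjusted p = 6.1e-06). Treated SCC1 libraries reached the level of SCC6, where PBS libraries had 111, 104 and 106 and treated libraries 118, 109 and 119, while SCC25 stood at 172 to 237 in PBS and 193 to 253 after cetuximab. A second intron 1 region (chr9:137561932-137562383) rose in both lines, from 29.9 and 30.1 to 82.5, 60.3 and 95.5 in SCC1 and from 27.8, 39.5 and 30.5 to 107, 109 and 102 in SCC6. In SCC25 it had 87.0, 80.0 and 98.4 in PBS and 95.6, 71.0 and 81.5 after cetuximab, and those groups overlapped.

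The COL5A1 promoter rose less, from 62.5 and 40.2 to 102, 101 and 103 in SCC1 (1.011 ± 0.28, limma adjusted p = 0.0065) and from 105, 108 and 109 to 157, 137 and 158 in SCC6 (0.49 ± 0.14, limma adjusted p = 0.0092). In SCC25 it had 147, 146 and 147 in PBS and 163, 158 and 179 after cetuximab, and this difference did not pass the threshold although the groups did not overlap. The SCC6 call of the promoter was lost with equal library medians (0.31, limma adjusted p = 0.118) and with DESeq2 (0.40, adjusted p = 0.0679), and its SCC1 call with the GC trend removed (0.50, limma adjusted p = 0.515). Without either SCC1 PBS library 3 COL5A1 regions were called in SCC1, and 3 with the GC trend removed.

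All 4 COL7A1 regions were higher in SCC1. The farthest upstream region (chr3:48636501-48636924) had 138 and 118 in SCC1 PBS and 255, 232 and 258 after cetuximab (0.95 ± 0.20, limma adjusted p = 1.8e-04), and in SCC6 22.96, 20.1 and 13.1 against 51.5, 45.5 and 59.2 (1.46 ± 0.28, limma adjusted p = 8.2e-05). In SCC25 it had 97.6, 93.7 and 90.8 against 99.8, 104 and 120. Treated and PBS libraries did not overlap in any line, which the rule for naming regions required in SCC1 alone, though SCC25 did not pass the threshold. The start-site region moved by 0.62 ± 0.21 in SCC1 (limma adjusted p = 0.035) and 0.66 ± 0.18 in SCC6 (limma adjusted p = 0.0050). The region in the downstream flank also lies at a start of PFKFB4. The SCC1 calls of COL7A1 were sensitive, since 1 of 4 was left without either SCC1 PBS library and 0 of 4 with the GC trend removed, while all 3 SCC6 calls stood under equal medians, quantile normalization and removal of the GC trend.

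The regions that closed in SCC1 were mostly in introns or flanks. The COL4A4 downstream flank region fell from 105 and 100 to 27.9, 25.3 and 26.6 (-1.91 ± 0.34, limma adjusted p = 7.8e-06), and in SCC25 it had 69.0, 47.6 and 76.3 in PBS and 39.4, 25.4 and 39.0 after cetuximab, which did not overlap and did not pass the threshold. COL17A1 intron 20 (chr10:105814371-105814555) fell from 72.9 and 61.4 to 26.7, 9.73 and 14.1. COL6A5 intron 5 (chr3:130105532-130105761), in a gene of the type VI family expressed in skin, fell from 116 and 75.9 to 30.5, 19.5 and 48.5 in SCC1 and from 49.5, 46.2 and 28.3 to 12.1, 19.5 and 22.1 in SCC6. COL19A1 intron 4 (chr6:70627805-70628165) fell from 133 and 92.7 to 36.8, 48.7 and 39.1 in SCC1 and from 50.7, 50.9 and 40.2 to 24.2, 25.1 and 11.9 in SCC6. In each of these 4 regions the treated SCC1 libraries lay below the SCC1 PBS libraries, which the rule for naming regions required. In SCC6 the treated libraries of COL6A5 intron 5 and COL19A1 intron 4 also lay below their PBS libraries. Without SCC1 PBS replicate 1 the SCC1 calls of COL17A1, COL6A5 and COL19A1 were lost, at log2 changes of -1.92, -1.28 and -1.15, and so was the SCC1 call of COL27A1 intron 7, at 1.32 (limma adjusted p = 0.0799, 0.158, 0.154 and 0.186).

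**Figure D4:**
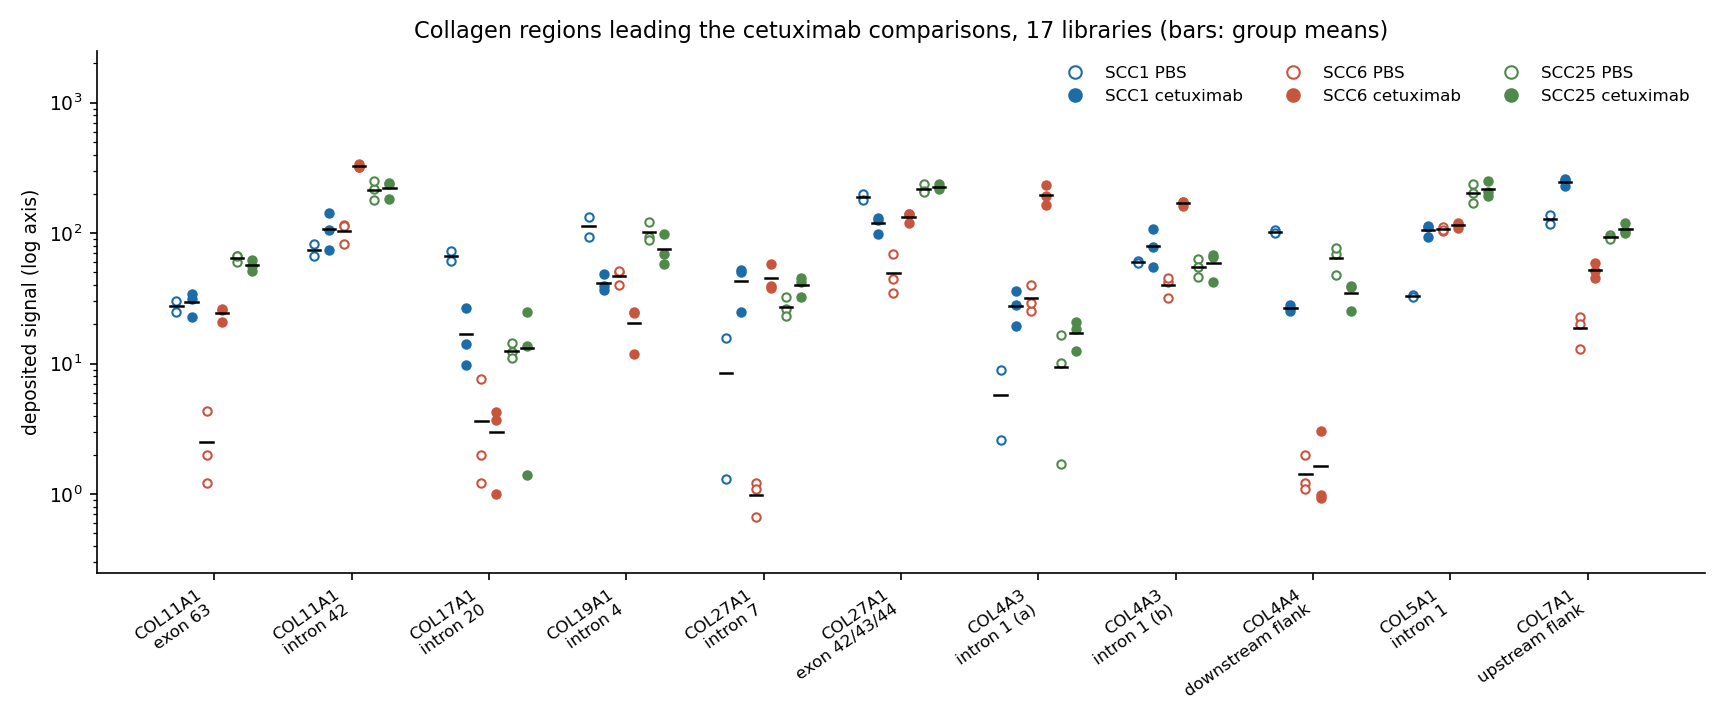
Deposited signal (log axis) of 11 collagen regions named in the text in all 17 libraries, with open circles for PBS, filled circles for cetuximab, colours for the lines and bars for group means. The filled SCC6 points of COL4A3 intron 1 (a starts at the lower coordinate) and of COL11A1 intron 42 lie above all open SCC6 points, and the filled SCC1 points of COL4A4 and COL17A1 lie below the open ones. These separations were conditions for naming the regions.

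In SCC25, 2 collagen regions of 262 tested passed the threshold (0.763%, where 0.315% of all regions did, 0.0405% higher and 0.275% lower), and 50 had an unadjusted p under 0.05 (19.1%, beside 13.2% of all regions). The median log2 change was -0.14, beside -0.08 over all regions. COL19A1 intron 4 had a second region (chr6:70617861-70618363) that rose from 55.0, 41.1 and 39.9 to 107, 84.0 and 90.3 (1.04 ± 0.21, limma adjusted p = 0.028). COL15A1 intron 5 (chr9:101751681-101752344), which was far more accessible in SCC25 than in the other lines, fell from 470, 430 and 437 to 322, 363 and 278 (-0.48 ± 0.11, limma adjusted p = 0.042). Neither region's groups overlapped, which the rule for naming regions required. The COL15A1 call was lost with equal library medians (-0.40, limma adjusted p = 0.0602) and with the GC trend removed (-0.44, limma adjusted p = 0.0876). The count was 0 without any 1 of the SCC25 PBS replicates 1, 2 and 3 and without SCC25 cetuximab replicate 1.

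Over all lines with the line as covariate, 27 collagen regions were higher and 25 lower of 264 tested (19.7% called, where 12.2% of all regions were called, 5.14% higher and 7.04% lower). The median log2 change was 0.04, beside 0.01 over all regions. Of the 52 called, 46 had the same direction in each line (88.5%, beside 90.5% of all called regions) and 9 had treated and PBS libraries apart in each line (17.3%, beside 18.7%). Of the higher regions with the same direction in each line, COL4A3 intron 1 at chr2:228079274-228079738 had the smallest adjusted p (1.98 ± 0.32, limma adjusted p = 5.2e-04). It was also called in SCC1 (2.23 ± 0.61, limma adjusted p = 0.0063). COL27A1 intron 7 was also among the higher ones, with 1.30 and 15.6 against 50.8, 52.6 and 25.04 in SCC1 and 26.0, 23.1 and 32.2 against 32.3, 45.6 and 42.5 in SCC25 beside the SCC6 values above. COL21A1, a FACIT collagen of vessel walls, had a region outside the canonical transcript (chr6:56243503-56244013) with 41.6 and 52.5 against 119, 128 and 102 in SCC1, and COL6A5 intron 38 (chr3:130188988-130189309) moved from 1.21, 4.68 and 4.35 to 38.4, 29.7 and 32.4 in SCC6. COL6A5 therefore had one region that opened and one that closed. COL6A5 intron 5 was the lower region with the smallest adjusted p (-1.25 ± 0.23, limma adjusted p = 0.0014), with 21.1, 23.1 and 13.6 against 7.03, 11.7 and 7.08 in SCC25, and COL19A1 intron 4 followed (-1.001 ± 0.18, limma adjusted p = 0.0014).

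SCC1 and SCC6 shared calls. Of 201 collagen regions tested in both, 15 were called in both (7.46%, beside 4.38% of all regions tested in both). They made up 48.4% of all 31 SCC1 calls and 20% of all 75 SCC6 calls, beside 31.9% and 12.9% over all regions. The direction was the same in 14 of the 15 (93.3%, beside 75.6%), and none of these differences from all regions was tested. The exception was a COL27A1 region over coding exons 42 to 44 (chr9:117050334-117051236). It fell in SCC1 from 200 and 180 to 131, 99.3 and 127 and rose in SCC6 from 68.9, 44.2 and 34.8 to 139, 121 and 141, while SCC25 had 239, 211 and 205.3 against 218, 237 and 227. Treated libraries of SCC1 and SCC6 thus came to lie at a similar level from opposite sides. No region called in SCC25 was called in another line.

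The difference between lines in the response was tested directly by the interaction of line and treatment, an F-test in limma. It was called for 35 of 264 collagen regions (13.3%, where 13.2% of all regions were called), and the COL27A1 exon region had the smallest adjusted p (1.06e-05). COL5A1 intron 1 at chr9:137536628-137537228 came next (adjusted p = 4.62e-05), followed by COL11A1 exon 63 (6.94e-05) and the COL4A3 intron 1 region at chr2:228092764-228093318 (2.4e-04, limma throughout). The COL4A3 region at chr2:228079274-228079738 was not called by it (limma adjusted p = 0.27), and its treated means were above its PBS means in all lines.

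**Figure D5:**
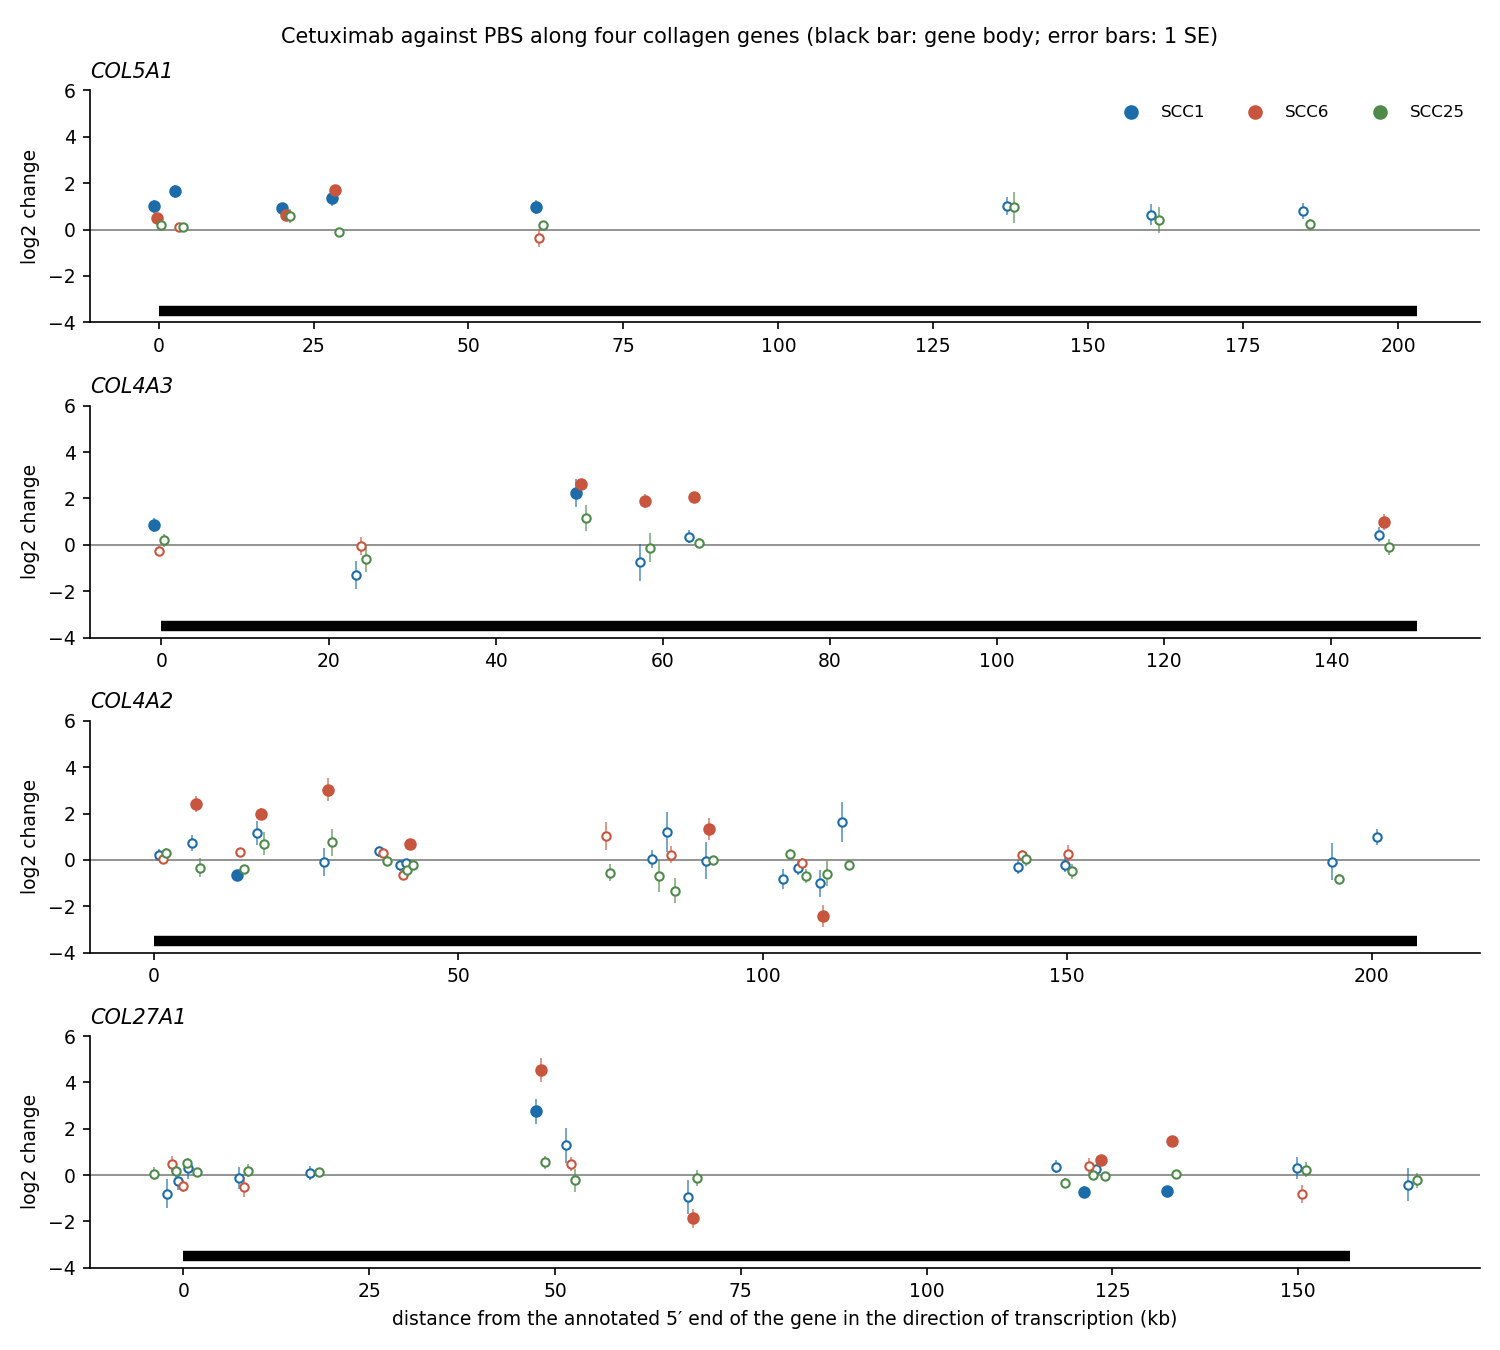
Log2 change after cetuximab (points, with bars of 1 SE) against the distance in kb from the annotated 5′ end along COL5A1, COL4A3, COL4A2 and COL27A1, with the gene body as a black bar and lines offset slightly for legibility; filled points have a limma adjusted p under 0.05. Filled points include those in the 5′ part of COL5A1, in the far part of intron 1 of COL4A3 and, in SCC1, at the promoter COL4A3 shares with COL4A4. In COL27A1 one region has filled points of opposite signs in SCC1 and SCC6.

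The closed collagen regions often carried an AP-1 motif in the 300 bases around their centre. It was found in 8 of the 13 lower regions in SCC1 (61.5%), in 14 of the 20 in SCC6 (70%) and in 19 of the 25 over all lines (76%), against 50.9%, 42.7% and 56.9% of all lower regions in the same comparisons and 26.6% of all collagen regions. Among opened collagen regions the AP-1 share was 16.7% in SCC1, 21.8% in SCC6 and 11.1% over all lines, beside 10.1%, 19.9% and 12.5% of all opened regions. TEAD matches occurred in 26 of the 55 opened collagen regions in SCC6 (47.3%) and in 35.2% of all opened regions there. The sequences of COL17A1, COL6A5 and COL19A1 shown above are examples of the first kind and that of COL11A1 of the second. Not every closed region was of the first kind. The COL4A2 intron 4 region at chr13:111068074-111068242, which closed in SCC6, held no AP-1 match in its own sequence and is not shown.

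The start-site regions of the collagen genes were counted apart from the introns. Of these, 4 were higher and 0 lower of 25 tested in SCC1 (COL1A1, COL5A1, COL7A1 and the shared COL4A3 and COL4A4 promoter), where 12.6% of all promoter regions were higher and 2.12% lower. In SCC6 4 were higher and 1 lower of 21 tested, where 5.65% of all promoter regions were higher and 10.9% lower. The higher ones were COL5A1, COL7A1, COL17A1 (1.18 ± 0.43, limma adjusted p = 0.034) and COL9A3 (0.97 ± 0.31, limma adjusted p = 0.017). The COL17A1 call was lost with equal library medians, quantile normalization, DESeq2 or the GC trend removed, and the COL9A3 call with DESeq2. The lower one was that of COL8A1, a network-forming collagen of vessels, which went from 87.0, 90.3 and 84.8 to 50.5, 59.4 and 63.1. COL1A1 in SCC1 had 88.5 and 114 in PBS and 176, 132 and 174 after cetuximab (0.66 ± 0.23, limma adjusted p = 0.038). Without SCC1 PBS replicate 1 the calls of COL1A1, COL7A1 and the shared promoter were lost (log2 changes 0.48, 0.39 and 0.68). In SCC25 0 of 25 passed with limma, edgeR or DESeq2, and 4 had an unadjusted limma p under 0.05. Over all 39 regions at any start of their gene, the SCC1 calls were 4 higher, and with the GC trend removed or without SCC1 PBS replicate 3 they were 0.

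The genes that modify, secrete, process, crosslink and degrade collagen and those of its receptors were examined through their own start-site regions. Of 42 such genes 31 had a region, among them 4 of 7 receptor genes. In SCC1 3 of 31 tested were higher and 1 lower, where 12.6% of all promoter regions were higher and 2.12% lower. The higher ones were enzymes of the endoplasmic reticulum that modify or fold chains, namely P4HB (1.013), PLOD3 (0.76) and COLGALT1 (1.12). Their limma adjusted p values were 1.5e-08, 0.013 and 0.015. The lower one was MMP1, the interstitial collagenase (-2.22). The calls of these pathway genes were not examined under the alternative settings, to which the SCC1 collagen calls were sensitive. In SCC6 2 of 30 tested were higher and 3 lower, where 5.65% of all promoter regions were higher and 10.9% lower. BMP1, which removes the C-propeptide of procollagen, was higher there (1.39, limma adjusted p = 3.3e-09), as was MMP14 (0.88). MMP1 (-1.61, limma adjusted p = 3.3e-13), MMP8 (-1.05) and MMP13 (-0.49), the secreted collagenases, were lower. The mean MMP1 signal was 270 ± 31.4 (SD, n = 3) in SCC6 PBS and 87.6 ± 10.3 after cetuximab, and 41.7 ± 3.64 (n = 2) and 9.08 ± 5.04 (n = 3) in SCC1. In SCC25 0 of 31 passed with limma, and 1 had an unadjusted p under 0.05. Over all lines MMP1 and MMP8 were lower and BMP1 higher of 31 tested, where 2.3% of all promoter regions were higher and 2.58% lower.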

How the data were processed

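ATAC-seq libraries were analysed from the table of regions and the peak lists of each library. Per the labels and the study's methods, the authors trimmed reads with Trim Galore 0.5.0, aligned them to hg19 (GRCh37) with Bowtie2 2.3.2, used SAMtools 1.9 and Picard 2.18, called peaks with MACS2 and merged them with DiffBind; cutoffs are not given in the sources used here. The signal deposited by the authors is whole reads per region, with 0 set to 1, multiplied by 1 scaling step per library, so reads could be recovered by division. The peak lists deposited by the authors give fold enrichment over background and the −log10 of p and q values, and only the positions of peaks were used here.

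Regions were matched by position to GENCODE 44 genes lifted to GRCh37. The collagen genes, gene lists and tests were chosen with earlier results of these data known. Coordinates are as deposited. For each comparison the 25% of regions with the lowest mean were dropped and log2(signal + 1) was fitted with limma 3.58.1 (trend and robust options, two-sided) in R 4.3.3, with Benjamini-Hochberg adjustment over all tested regions and a threshold of 0.05. A fold change on this scale understates the change of low regions. Named regions were the start-site region of each gene, up to 4 regions higher and 4 lower per line and over all lines with the smallest adjusted p and no overlap of libraries (over all lines, the same direction in each line), the 4 with the smallest interaction p, and up to 3 in each direction per PBS comparison. Regions of COL4A2 intron 3, COL4A3 intron 1 (chr2:228087081-228087409) and COL5A1 intron 1 (chr9:137561932-137562383), and the COL7A1 downstream region, were added after their values were seen. Alternatives included edgeR 4.0.16 and DESeq2 1.42.0 on the recovered reads (100% of values were whole within 0.001), with which edgeR called 36 collagen regions in SCC1, 76 in SCC6 and 6 in SCC25. The fit was also run on simulated reads with a fixed spread and changes planted only in regions of higher signal. That run gives no check of low regions or of scaling trends.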

Additional observations from a re-analysis of the deposited data

Results flagged for a closer look

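The change after cetuximab differed between the lines for 35 of 264 collagen regions (13.3%, where 13.2% of all regions were called). The test was an F-test in limma on the line-by-treatment terms, Benjamini-Hochberg adjusted over all regions. Among the named regions the smallest adjusted p was that of COL27A1 over exons 42 to 44 (1.06e-05), with log2 changes of -0.68 in SCC1, 1.47 in SCC6 and 0.06 in SCC25. COL5A1 intron 1 at chr9:137536628-137537228 (4.62e-05) changed by 1.65 in SCC1, 0.11 in SCC6 and 0.10 in SCC25. The reverse order was seen for COL11A1 exon 63 (6.94e-05), COL4A3 intron 1 at chr2:228092764-228093318 (0.000237) and COL11A1 intron 42 (0.000326), each of which passed the test in SCC6 and not in SCC1 or SCC25. COL27A1 intron 7 (0.000904), the far upstream COL7A1 region (0.00722) and COL6A5 intron 38 (0.03) rose in SCC1 and SCC6 and did not pass in SCC25. COL22A1 intron 5 (0.00737) fell in SCC6. COL27A1 intron 37 (0.0374) fell in SCC1. The start-site regions of COL7A1 (0.0308) and COL5A1 (0.0461) passed the threshold by a small margin.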

How the results depend on the processing

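Among the counts of collagen regions called, those in SCC6 and in the 3 comparisons of PBS libraries stayed within 1.5 times their value under every alternative run. In SCC1 the count of 31 became 12 with the GC trend removed and 20 with DESeq2, and ranged from 6 (without SCC1 PBS replicate 1) to 35 when 1 library was left out. In SCC25 the count of 2 became 1 with equal library medians or the GC trend removed, 4 with a pseudocount of 5 and 6 with edgeR, and ranged from 0 to 4 when 1 library was left out. The interaction count of 35 became 55 with edgeR and ranged from 21 (without SCC6 cetuximab replicate 1) to 44 when 1 library was left out. Treated and PBS libraries with the same replicate number had deviations with correlations of -0.057 to 0.063. Regions of few reads weaken such correlations, so they cannot exclude pairing. With the number as a replicate block the counts were 35 in SCC1, 78 in SCC6, 4 in SCC25, 26 instead of 52 over all lines and 40 for the interaction. Leaving out the regions of 190 to 205 bases, a choice made after seeing the data, gave 31, 67, 2 and 49 in SCC1, SCC6, SCC25 and over all lines. COL9A1 intron 5 reversed in SCC25 against SCC6 from -4.18 to 0.52 with the GC trend removed (limma adjusted p = 0.059); the cause was not tested. Where leaving out 1 library left a single PBS library in SCC1, it was assumed to vary like the other group. Low regions limit the precision, since many values rest on 1 read.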
